A study of Homo sapiens with 24 samples.

Results

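The 33 genes described here encode the enzymes of cholesterol and fatty acid synthesis and the proteins that control their transcription. They were chosen by name, as 18 enzymes that lead from acetyl-CoA to cholesterol (the sterol branch, 7 of them in the mevalonate part and 11 after squalene synthase is reached), 9 enzymes of fatty acid synthesis and lipid assembly (the fatty acid branch), and 6 regulators and transport proteins. The rule uses names and no measured value, though the genes were chosen with earlier results of these data known. All 33 genes were listed and tested in each of the 3 tables, which list 13879 genes for the empty line, 13879 for the MIST1 line and 14053 for the PTF1a line.

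Panc-1 is a human pancreatic ductal adenocarcinoma cell line. The cells carried the doxycycline-inducible Tet-One plasmid, either empty (Tet-One) or with the open reading frame of rat MIST1 (Tet-MIST1) or mouse PTF1a (Tet-PTF1a), each with a myc tag. MIST1 and PTF1a are basic helix-loop-helix transcription factors of the pancreatic acinar cell, and the study asked what their return does to pancreatic cancer cells. In each line 4 libraries came from cells without doxycycline (Control) and 4 from cells given 1 μg/ml doxycycline (Dox) for 72 h, so that 24 libraries of polyadenylated RNA were compared. The lines were derived from single puromycin-resistant clones screened for induction, and the cells were at passage 32, or 33 for Tet-MIST1, so that clone, passage and plasmid cannot be told apart when lines are compared. All cells were grown in tetracycline-depleted serum. Each comparison of Dox with Control was therefore made within a line, and the empty Tet-One line shows what doxycycline does without a transgene.

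Cholesterol and unsaturated fatty acids are made by pathways that draw on the same acetyl-CoA and answer to the same transcription factors, the sterol regulatory element-binding proteins. SREBF2 encodes SREBP-2, which acts mainly on sterol genes, and SREBF1 encodes SREBP-1, which acts mainly on fatty acid genes. Both are held in the endoplasmic reticulum by INSIG1 and INSIG2 when sterols are plentiful, and SCAP escorts them to the Golgi, where they are cut and released, when sterols run low. INSIG1 and SREBF1 are themselves SREBP targets, and acinar and tumor cells both use these pathways to build membranes.

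To show the upstream sequence of the branches that moved, 200 bases from 250 to 51 before the most upstream RefSeq start (GRCh38.p14) are given for the repressed gene with the largest change in Tet-PTF1a of each branch. FADS2 changed more than LPIN1, but its hg19 span starts at chr11:61583675, inside that of FADS1 (chr11:61567097-61584529). LPIN1 is therefore shown for the fatty acid branch. All 3 are read on the gene's own strand. Capitals mark exact matches, on either strand, of CCAAT (the NF-Y motif), GGGCGG (the Sp1 motif) or the E box CAGCTG.
EBP (chrX:48521558-48521757, plus strand): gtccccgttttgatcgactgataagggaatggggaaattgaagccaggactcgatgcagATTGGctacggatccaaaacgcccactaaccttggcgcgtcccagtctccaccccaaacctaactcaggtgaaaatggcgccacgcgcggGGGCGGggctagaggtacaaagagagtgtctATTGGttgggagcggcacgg
LPIN1 (chr2:11677294-11677493, plus strand): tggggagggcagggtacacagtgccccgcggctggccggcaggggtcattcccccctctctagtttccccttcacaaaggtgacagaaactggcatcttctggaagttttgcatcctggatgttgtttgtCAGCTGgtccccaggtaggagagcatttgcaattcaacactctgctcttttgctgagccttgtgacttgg
SREBF1 (chr17:17837037-17837236, minus strand): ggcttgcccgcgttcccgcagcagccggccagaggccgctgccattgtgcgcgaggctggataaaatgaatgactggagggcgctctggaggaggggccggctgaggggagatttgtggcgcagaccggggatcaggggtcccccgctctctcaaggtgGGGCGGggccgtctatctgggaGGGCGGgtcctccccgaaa
The EBP stretch held 2 CCAAT and 1 GGGCGG matches, the SREBF1 stretch 2 GGGCGG matches, and the LPIN1 stretch 1 CAGCTG match. RefSeq windows from 250 bases before to 50 after a start were at hand for 29 of the 33 genes, counting every listed start of a gene. CCAAT was found in 21 of the 29 (72.4%), against 39.7% of all 27305 genes with a window, and GGGCGG in 28 (96.6%), against 48.3%. The 27305 genes include many outside the 14411 listed in any of the 3 tables. The shares among genes expressed in these cells were not taken. The sterol regulatory element was sought only as exact matches of TCACNCCAC, found in 1 gene, SREBF2, against 1.39% of all genes. Other forms of the element and sites outside the window were not looked for. E boxes matching CANNTG, of which CAGCTG is one form, were found in 20 genes (69.0%), against 73.1%, and CAGCTG itself in 7 (24.1%), against 21.1%. These are matches of letters in a short window, read as a description only.

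The induced factors were checked first. PTF1A was counted 0 to 2 times in the Tet-PTF1a Control libraries and 53 to 168 times in the Dox libraries, and BHLHA15 (MIST1) 2 to 16 and 12 to 22 times. These are counts on the human genes, while the transgenes are from mouse and rat. Neither gene was listed in the Tet-One or Tet-MIST1 tables, so induction of MIST1 could not be read from them. Library totals ran from 17210989 to 43018494 counts, and all 6 ductal markers looked for (KRT7, KRT8, KRT18, KRT19, SOX9 and EPCAM) were listed in every table. Of 8 markers of immune, endothelial, liver and islet cells only CD68, also a lysosomal protein, was listed, and PTPRC, CD3E, PECAM1, VWF, ALB, INS and GCG were not. Tet-One Dox replicate 1 stood apart from the other 3 Dox libraries of its line, with an SD of the log2 difference over genes of 0.590, and Tet-MIST1 Dox replicate 1 came next with 0.252, against 0.150 to 0.197 in the other Dox libraries of that line. The other Dox libraries of Tet-One had 0.227 to 0.251, each set against a mean that includes replicate 1. The deviations of both Dox replicate 1 libraries in the 33 genes followed exon length and are given below beside the results that they touch. Levels below are in CPM, read counts divided by the library size after edgeR's TMM scaling within a line.

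Most of the pathway fell when PTF1a was induced. In Tet-PTF1a cells 25 of the 33 genes fell and 1 rose at a false discovery rate (FDR) under 0.05 by edgeR's quasi-likelihood test, whereas 24.4% of all 14053 genes tested fell and 23.8% rose. The median log2 fold change (Dox over Control) was -0.27 for the 33 genes and 0.00 over all genes. No gene of the 33 reached a change of 1 on the log2 scale. With counts scaled by library size alone, 24 of the 33 fell and 3 rose, and over all genes the split moved from 3431 lower and 3344 higher to 2698 lower and 4392 higher. In 23 of them every Dox library lay below every Control library, as in 21.4% of all genes, and in 1 every Dox library lay above, as in 20.8%. The summed level of the 6 ductal markers differed in this line too, from 3399 to 3575 CPM in the Control libraries to 1758 to 1808 CPM in the Dox libraries, and that of CD68 from 62.1 to 68.0 CPM to 31.1 to 35.9 CPM. KRT8, KRT18, KRT19 and EPCAM were lower in every Dox library, most of the sum being KRT8 and KRT18, while KRT7 (0.985 to 1.81 CPM in Control, 3.82 to 5.17 CPM in Dox) and SOX9 (239 to 260.1 CPM, and 303 to 320 CPM) were higher in every Dox library. Their part in the results was not tested.

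**Figure D1:**
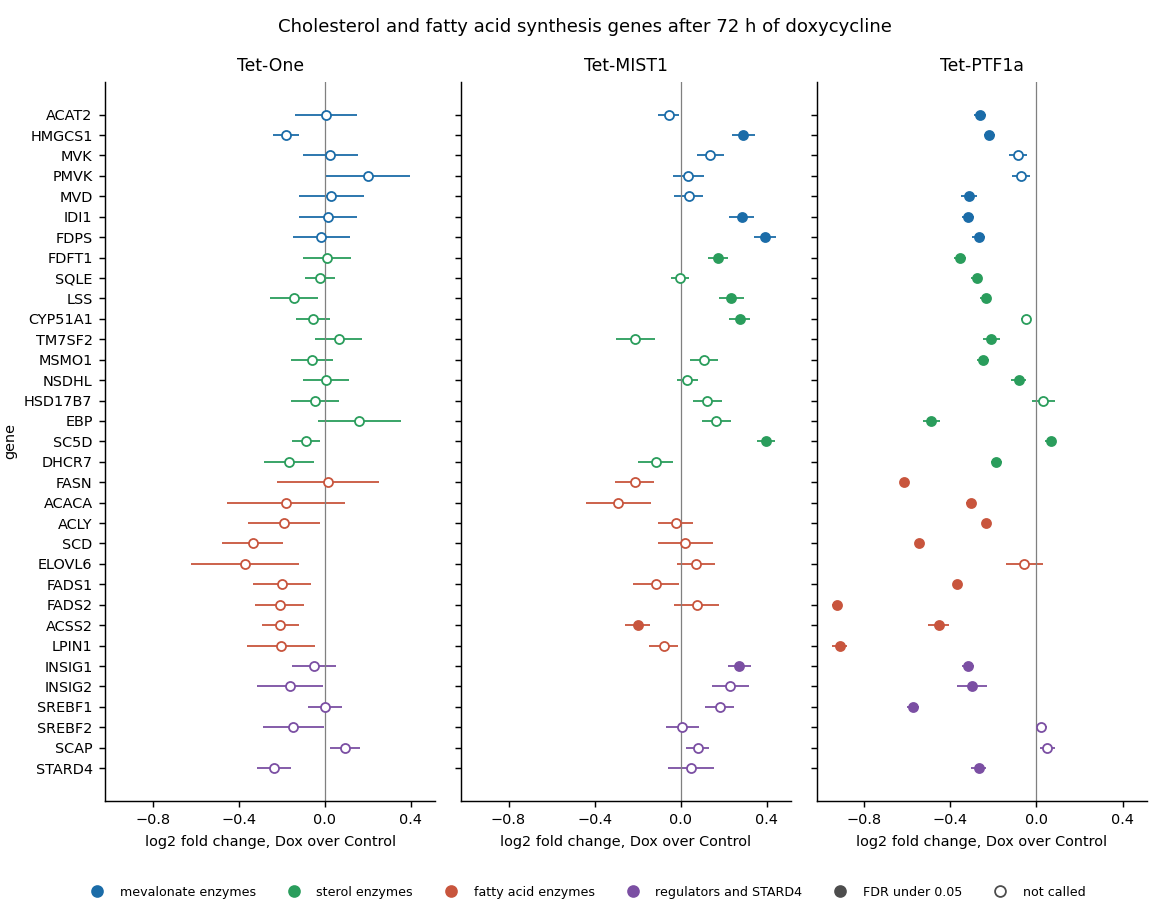
Log2 fold change of Dox over Control for the 33 genes (rows, coloured by branch) in the 3 lines, with edgeR's estimate as a point and its SE as a bar (4 against 4 libraries); filled points passed FDR under 0.05. In Tet-PTF1a 25 filled points lie left of 0 and 1 right of it, in Tet-MIST1 1 lies left and 8 right, and in Tet-One none is filled.

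The fatty acid branch fell furthest within Tet-PTF1a, an order not kept in the median differences from the other lines given below. Of its 9 genes 8 fell, with a median log2 fold change of -0.45. FADS2, the delta-6 desaturase that opens the synthesis of long polyunsaturated fatty acids (hg19 chr11:61583675-61634826), had 473, 458, 475 and 473 CPM in the Control libraries and 243, 248, 246 and 250.4 CPM in the Dox libraries. LPIN1, a phosphatidate phosphatase of triglyceride synthesis that is also a nuclear coregulator (chr2:11817705-11967533), had 76.2, 81.5, 75.4 and 76.4 CPM in Control and 39.7, 42.6, 40.3 and 40.8 CPM in Dox. In both genes all Dox libraries were low, with no overlap between the groups. FADS2 fell by 47.5% (log2 fold change -0.93, SE 0.0216, FDR 6.91e-37) and LPIN1 fell by 46.9% (log2 fold change -0.91, SE 0.0350, FDR 1.03e-27).

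FASN, the fatty acid synthase that builds palmitate, was among the most abundant of these transcripts. Its Control libraries had 982, 1015, 1033 and 1065 CPM and its Dox libraries 659, 678, 669 and 666 CPM. SCD, the stearoyl-CoA desaturase that makes oleate, stood at 4388, 4212, 4136 and 4254 CPM in Control and 2895, 2927, 2867 and 2927 CPM in Dox. The groups lay far apart in both, and the Dox libraries of each differed from one another by little. FASN fell by 34.7% (log2 fold change -0.62, SE 0.0212, FDR 1.95e-29) and SCD by 31.6% (a log2 fold change of -0.55, SE 0.0180, FDR 1.57e-30).

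The other fatty acid genes moved less. ACSS2, which makes acetyl-CoA from acetate, fell by 0.45 on the log2 scale, and FADS1, the delta-5 desaturase next to FADS2, fell by 0.37. ACACA, the acetyl-CoA carboxylase that commits carbon to fatty acids, fell by 0.30, and ACLY, which makes cytosolic acetyl-CoA from citrate, fell by 0.23. ELOVL6, the elongase of palmitate, was the only one of the branch not called, at 6.68 CPM ± 0.27 in Control and 6.4 ± 0.43 in Dox (SD, n = 4). FADS1 and FADS2 are transcribed towards opposite sides from a shared start region and share 142 exon bases on opposite strands, 3.21% and 3.69% of their exons, and whether the counting used strand is not given in the sources used here.

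**Figure D2:**
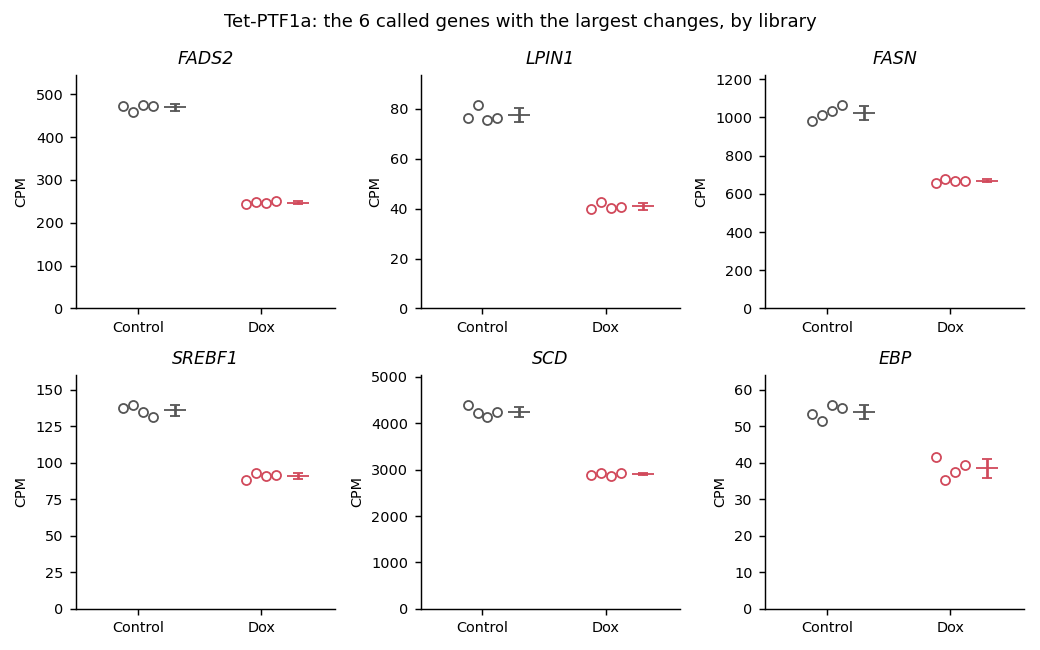
CPM in each of the 4 Control (grey) and 4 Dox (red) libraries of Tet-PTF1a cells for the 6 called genes with the largest absolute changes, with the mean and SD beside the points and the axis from 0. In each gene all 4 Dox libraries lie below all 4 Control libraries, as in FADS2 at 243 to 250.4 against 458 to 475 CPM.

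Among the regulators, SREBF1 fell while SREBF2 and SCAP were not called. SREBF1 (chr17:17714663-17740325) had 138, 139, 135 and 131 CPM in Control and 88.4, 92.9, 90.6 and 91.6 CPM in Dox. It fell by 32.9% (log2 fold change -0.57, SE 0.0281, FDR 2.34e-23), without overlap between the groups. SREBF2, in contrast, had 180.0, 169, 175 and 170.2 CPM in Control and 176, 176, 178 and 176 CPM in Dox (log2 fold change 0.02, SE 0.0248, FDR 0.470). All Dox values of SREBF2 lay within the Control range.

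SCAP, the escort of both SREBPs, had 54.5, 53.1, 54.2 and 57.2 CPM in Control and 54.9, 57.1, 55.1 and 59.6 CPM in Dox, and the groups overlapped (log2 fold change 0.05, FDR 0.246). INSIG1, the anchor that is also an SREBP target, had 149.8, 153, 155 and 155 CPM in Control and 115, 124, 124 and 126 CPM in Dox. It fell by 19.8% (log2 fold change -0.32, FDR 3.48e-14). INSIG2, the anchor that is less dependent on SREBP, had 19.0, 24.8, 20.8 and 20.8 CPM in Control and 17, 15.5, 19.1 and 16.7 CPM in Dox, with 1 Dox library reaching into the Control range. INSIG2 fell by 0.30 on the log2 scale (FDR 0.000933), and STARD4, a carrier of cholesterol between membranes, fell by 0.27. With counts scaled by library size alone, SREBF2 and SCAP were also called, as slightly higher (log2 fold change 0.06 and 0.09).

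The sterol branch fell more evenly and by less. Of its 18 genes 13 fell and 1 rose, with a median log2 fold change of -0.23. EBP, the sterol isomerase (chrX:48380164-48387104), had 53.3, 51.5, 55.7 and 54.9 CPM in Control and 41.5, 35.2, 37.5 and 39.4 CPM in Dox. It fell by 28.8% (log2 fold change -0.49, SE 0.0404, FDR 1.41e-14), the largest change of the branch, and its Dox libraries were the more scattered. SC5D, the sterol C5-desaturase (chr11:121163388-121184119), was the gene that rose, from 146, 142, 144 and 144 CPM to 153, 149.6, 151 and 149 CPM (log2 fold change 0.07, SE 0.0250, FDR 0.0249). Its call was lost without Control replicate 2, without Dox replicate 1 and in a fit of all 24 libraries.

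In the mevalonate part, which makes the isoprenoid units, 5 of 7 genes fell. IDI1, the isopentenyl diphosphate isomerase, had 153, 158, 156 and 151 CPM in Control and 119, 119.6, 127 and 128 CPM in Dox (log2 fold change -0.32, FDR 3.84e-14). FDPS, the farnesyl diphosphate synthase, had 159, 155, 159 and 161 CPM against 123, 134, 127 and 139.6 CPM (log2 fold change -0.27, FDR 2.45e-10). HMGCS1, the HMG-CoA synthase, had 137, 144, 138 and 135 CPM against 117, 121, 122 and 116 CPM (log2 fold change -0.22, FDR 2.10e-09). None of these 3 overlapped between the groups. MVD, the mevalonate diphosphate decarboxylase, fell by 0.31 and ACAT2, the cytosolic thiolase, fell by 0.26. The kinases MVK and PMVK were not called (log2 fold changes -0.08 and -0.07).

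After squalene synthase, 8 of 11 genes fell. FDFT1, the squalene synthase itself, fell by 0.36 and SQLE, the squalene epoxidase, fell by 0.28. LSS, which closes the ring to lanosterol, fell by 0.24, MSMO1, a C4-methyl oxidase, fell by 0.25, TM7SF2, a sterol C14-reductase, fell by 0.21 and DHCR7, the last reductase of cholesterol synthesis, fell by 0.19. The C4-decarboxylating dehydrogenase NSDHL fell by 0.08, with overlapping groups and an FDR of 0.0405 that passed the threshold in only 2 of 8 fits with a library left out. CYP51A1, the lanosterol demethylase, had 285, 291, 286 and 281 CPM in Control and 273, 270.4, 271 and 288 CPM in Dox and was not called (log2 fold change -0.05, FDR 0.0733), nor was HSD17B7, a 3-ketosteroid reductase (log2 fold change 0.03).

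ACAT2 shares 23.8% of its exon bases with TCP1 on the opposite strand and FDPS 12.6% with RUSC1-AS1, and FDPS and HSD17B7 have pseudogene copies, so reads of these genes may not all be their own. Of the 25 calls of a fall 18 held in each of 10 other settings (a minimum fold change aside) and in each of 8 fits without 1 library. The fit of all 24 libraries, with one shared estimate of the spread, kept 18 falls and no rise.

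Part of the sterol branch rose with Dox in Tet-MIST1. In Tet-MIST1 cells 8 of the 33 genes rose and 1 fell by edgeR's test at FDR under 0.05, where 11.9% of all 13623 genes tested rose and 8.77% fell. The median log2 fold change was 0.07 for the 33 genes and 0.00 over all genes. Of the 8 that rose 7 were in the sterol branch and the other one was INSIG1, and the one that fell, ACSS2, was in the fatty acid branch. In the same 8 genes every Dox library lay above every Control library, as in 14.1% of all genes, and in ACSS2 every Dox library lay below, as in 12.9%. Without Dox replicate 2 the calls were 9 rises and 5 falls, and without Dox replicate 1 they were 9 rises and 1 fall. The shares of all genes called in these fits are not given, so a general change in the number of calls cannot be told apart.

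SC5D and FDPS rose most in Tet-MIST1. SC5D had 63.1, 66.9, 64.6 and 65.1 CPM in Control and 87.7, 82.6, 86.7 and 85.3 CPM in Dox. FDPS had 135, 149, 140.1 and 144 CPM in Control and 199.9, 180.1, 186 and 179 CPM in Dox. The rise in SC5D was 31.8% (log2 fold change 0.40, SE 0.0422, FDR 8.14e-05) and that in FDPS 31.3% (log2 fold change 0.39, SE 0.0495, FDR 0.000312), each without overlap.

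HMGCS1, IDI1, CYP51A1 and INSIG1 rose by about the same factor. HMGCS1 went from 30.9, 32.6, 30.4 and 31.6 CPM to 37.0, 40.3, 40.2 and 36.2 CPM (log2 fold change 0.29, SE 0.0524, FDR 0.00300). IDI1 went from 65.9, 76.7, 69.7 and 75.5 CPM to 92.5, 86.5, 89.4 and 81.8 CPM (log2 fold change 0.28, SE 0.0587, FDR 0.00677). All 4 Dox libraries were above the highest Control library in both. CYP51A1 went from 99.0, 103, 94.7 and 99.1 CPM to 129, 115, 119 and 115 CPM (log2 fold change 0.27, SE 0.0495, FDR 0.00316), and INSIG1 from 72.1, 76.8, 77.3 and 78.2 CPM to 98.5, 92.5, 92.1 and 85.0 CPM (log2 fold change 0.27, SE 0.0522, FDR 0.00435). These 6 calls held in each of the 10 other settings and the 8 fits without 1 library.

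**Figure D3:**
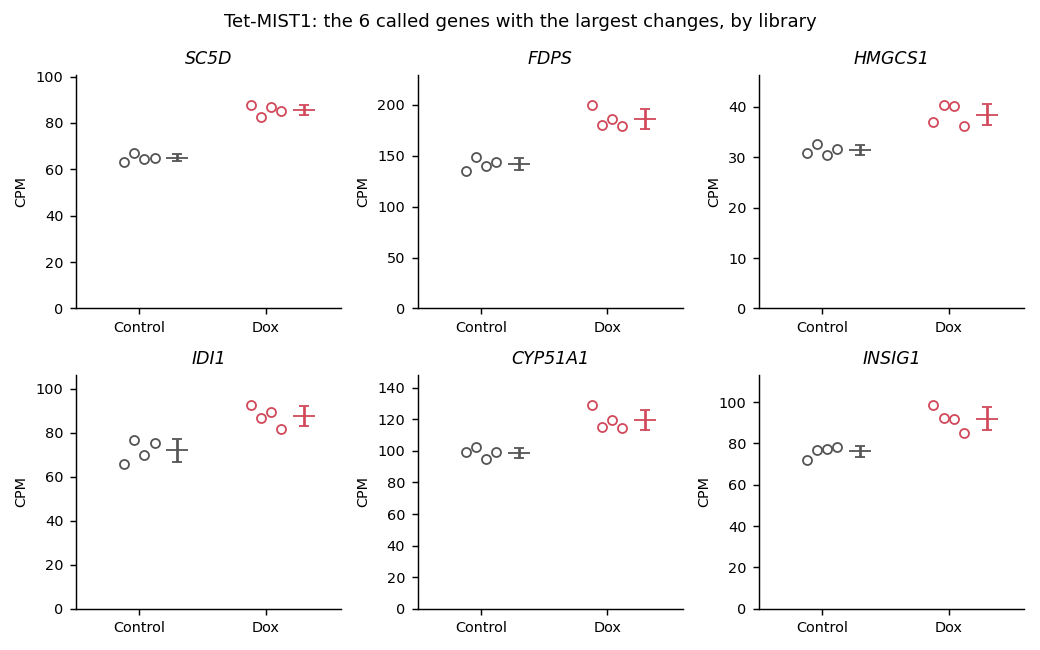
CPM in each of the 4 Control (grey) and 4 Dox (red) libraries of Tet-MIST1 cells for the 6 called genes with the largest absolute changes, with the mean and SD beside the points and the axis from 0. All 4 Dox libraries lie above all 4 Control libraries in each gene, as in SC5D at 82.6 to 87.7 against 63.1 to 66.9 CPM.

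LSS and FDFT1 rose by 0.24 and 0.17 on the log2 scale (FDR 0.0153 and 0.0262). The call of LSS was lost without Control replicate 1, and that of FDFT1 in 4 of 8 fits without 1 library. ACSS2 went from 36.8, 36.7, 37.7 and 35.0 CPM to 28.9, 34.3, 33.1 and 31.0 CPM and fell by 0.20 (FDR 0.0339), a call that 4 of the 8 such fits kept. Its log2 fold change in Tet-One was -0.21, not called, and the difference between these lines was 0.00115 (interaction FDR 0.998). The other 8 fatty acid genes were not called and ranged from -0.29 in ACACA to 0.07 in FADS2. ACACA had 84.2, 85.3, 89.5 and 83.2 CPM in Control and 44.2, 88.2, 74.6 and 73.3 CPM in Dox, so 3 Dox libraries lay below all Control libraries, Dox replicate 1 by far the lowest, and Dox replicate 2 lay within their range. It was called as lower without Dox replicate 2.

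The other regulators were not called in Tet-MIST1. SREBF1 had 177, 177, 196 and 189.8 CPM in Control and 199, 242, 195 and 203 CPM in Dox (log2 fold change 0.18, FDR 0.0783). It was called as higher without Dox replicate 1 and when a trend with exon length was removed. SREBF2 had 87.6, 86.0, 91.7 and 87.5 CPM in Control and 77.2, 104, 85.7 and 87.7 CPM in Dox (log2 fold change 0.01, FDR 0.944), and its Dox libraries lay on both sides of the Control libraries. SCAP had 62.1, 55.5, 62.1 and 60.1 CPM against 64.7, 63.4, 58.7 and 66.5 CPM (log2 fold change 0.08, FDR 0.313), and INSIG2 12.5, 12.8, 11.9 and 13.0 CPM against 17.1, 14.8, 14.5 and 12.4 CPM (log2 fold change 0.23, FDR 0.0721). Both overlapped between the groups.

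The responses of the 2 induced lines differed in 21 of the 33 genes. This was tested as the line by Dox interaction in edgeR, fitted to 16 libraries, and all 21 were more negative in Tet-PTF1a, where 18.6% of all 13521 genes tested were more negative and 17.8% more positive. FADS2 differed most, by -0.99 on the log2 scale (SE 0.118, FDR 2.97e-06), followed by LPIN1 (-0.83, FDR 4.76e-08) and SREBF1 (-0.75, FDR 1.11e-07). FDPS (-0.65), EBP (-0.64), IDI1 (-0.60), INSIG1 (-0.58), SCD (-0.56), INSIG2 (-0.53), FDFT1 (-0.52), HMGCS1 (-0.50) and LSS (-0.46) came next. FDPS, IDI1, INSIG1, FDFT1, HMGCS1 and LSS each rose in Tet-MIST1 and fell in Tet-PTF1a.

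Smaller differences were found for FASN (-0.39), MSMO1 (-0.35), MVD (-0.34), SC5D (-0.32), CYP51A1 (-0.31), STARD4 (-0.30), SQLE (-0.27), ACSS2 (-0.25) and ACAT2 (-0.20). SC5D rose in both lines, more in Tet-MIST1 (0.40) than in Tet-PTF1a (0.07). The difference was not called for SREBF2 or SCAP, nor for MVK, PMVK, TM7SF2, NSDHL, HSD17B7, DHCR7, ACACA, ACLY, ELOVL6 and FADS1. The count stayed between 18 and 24 over all other settings and left-out libraries.

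**Figure D4:**
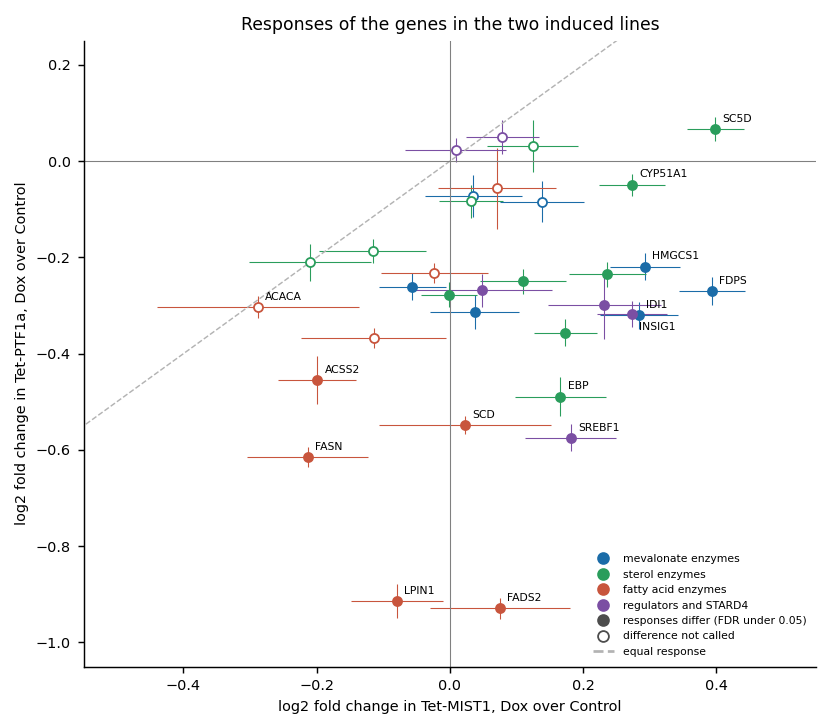
Log2 fold change of Dox over Control in Tet-MIST1 (x axis) and Tet-PTF1a (y axis) for the 33 genes, coloured by branch, with SEs as bars; filled points differ between the lines (interaction, FDR under 0.05) and the dashed line marks an equal response. All 21 filled points lie below the dashed line, with FADS2 and LPIN1 lowest.

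In the empty Tet-One line no gene was called, neither among the 33 nor among all 13428 genes tested (0%) with edgeR, and DESeq2 called none of the 33 either. At an unadjusted p under 0.05, 4 of the 33 were lower and none was higher, where 0.856% of all genes were lower and 2.13% higher. The spread in this line was governed by Dox replicate 1. In that library ACACA had 74.0 CPM against 198 to 202 CPM in the other 3 Dox libraries, LPIN1 39.8 against 65.7 to 67.9 CPM, and EBP 119 against 64.1 to 67.4 CPM. Of the 33 genes 17 lay above and 16 below the other Dox libraries, from -1.43 to 0.84 on the log2 scale, and the deviation fell with exon length (Pearson's r = -0.83 with log length, Spearman's rho = -0.81, across 33 genes of 1 library, which are not independent). Tet-MIST1 Dox replicate 1 showed the same form at smaller size, from -0.83 to 0.31 (r = -0.72, rho = -0.70). Beyond the fits without these libraries and a fit with the exon length trend removed within each line, the part of this in the results was not tested.

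**Figure D5:**
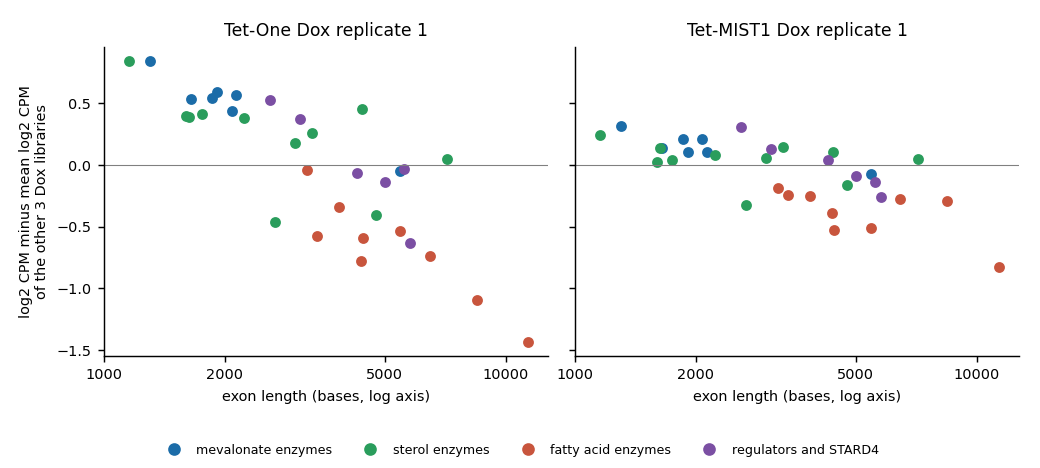
Log2 CPM of Dox replicate 1 minus the mean log2 CPM of the other 3 Dox libraries, for the 33 genes (points, coloured by branch) against exon length on a log axis, in Tet-One (left) and Tet-MIST1 (right). Short genes mostly lie above 0 and long ones mostly below, down to -1.43 for ACACA in Tet-One, and all 9 fatty acid genes lie below 0 in both libraries.

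The regulators in Tet-One lay as follows. SREBF1 had 175, 183, 170.3 and 173 CPM in Control and 163, 190.0, 161 and 188 CPM in Dox (log2 fold change 0.00, SE 0.0793), with the Dox libraries on both sides of Control. SREBF2 had 236, 233, 223 and 219 CPM against 146, 229, 212 and 237 CPM, the low value being that of Dox replicate 1 (log2 fold change -0.15, SE 0.142). SCAP had 58.8, 64.6, 61.8 and 64.0 CPM against 64.1, 72.5, 64.6 and 64.8 CPM (log2 fold change 0.09). INSIG1 had 108, 121, 114 and 117 CPM against 134, 97.4, 104 and 109 CPM (log2 fold change -0.05), and INSIG2 22, 27.4, 22.7 and 22.2 CPM against 27.2, 16.2, 19.0 and 21.8 CPM (log2 fold change -0.16). For both INSIG genes Dox replicate 1 was the highest Dox library. The groups overlapped in each of these 5 regulators, and only HMGCS1 and SC5D of the 33 genes did not overlap in this line, with every Dox library below Control as in 1.06% of all genes (1.35% lay above). HMGCS1 had 103, 104, 109.6 and 103 CPM in Control and 90.4, 90.4, 94.8 and 94.6 CPM in Dox.

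Without Dox replicate 1 the Tet-One line looked different for the sterol branch, though still no gene of the 33 was called. All 18 sterol branch genes then had negative log2 fold changes, from -0.17 to -0.05, with a median of -0.11 against 0.00 over all genes. At an unadjusted p under 0.05, 1 of the 33 genes (SCAP) was higher, where 927 of all 13407 genes tested were. At the same threshold 14 of the 33 were lower, where 5.29% of all genes were. Among them were HMGCS1 (-0.17), FDPS (-0.17), MSMO1 (-0.17), SCD (-0.22) and STARD4 (-0.23), and the lowest FDR of the 33 genes by edgeR was 0.141. SREBF1 (0.03), ACACA (0.06) and FASN (0.22) had positive estimates that were not called. Set side by side, the log2 fold change of HMGCS1 was -0.22 in Tet-PTF1a and -0.17 in the empty line without that library, and that of FADS2 was -0.93 and -0.13.

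The difference between Tet-PTF1a and Tet-One was tested in the same way. It was called for 5 of the 33 genes, all more negative in Tet-PTF1a, where 7.33% of all 13521 genes were more negative and 5.52% more positive. SREBF1 (-0.58, SE 0.0799, FDR 0.000111), FADS2 (-0.72, SE 0.118, FDR 0.000548) and LPIN1 (-0.72, SE 0.169, FDR 0.00925) were called in every other setting and without any library. SQLE (-0.26, FDR 0.0256) and FDFT1 (-0.37, FDR 0.0478) held in 13 and 8 of 22 other fits. The count was 3 without Tet-PTF1a Control replicate 3 or 4, without Tet-PTF1a Dox replicate 1, 2 or 3, and without Tet-One Control replicate 1 or 2. With all libraries the median Tet-PTF1a minus Tet-One difference was -0.21 in the fatty acid branch and -0.23 in the sterol branch. For Tet-PTF1a minus Tet-MIST1 these medians were -0.25 and -0.32. In Tet-One alone the branch medians of Dox over Control were -0.20 and -0.005, or -0.08 and -0.11 without Dox replicate 1.

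Without Tet-One Dox replicate 1 the count was 16, with 15 genes more negative in Tet-PTF1a (16.1% of all genes) and 1 more positive (14.6%). All fatty acid genes but ELOVL6 were then among the 15, led by LPIN1 (-0.86), FASN (-0.83), FADS2 (-0.79), ACACA (-0.36), SCD (-0.33) and FADS1 (-0.29). SREBF1 (-0.61) and INSIG1 (-0.16) were called of the regulators. In the sterol branch EBP (-0.38), FDFT1 (-0.24), SQLE (-0.20), LSS (-0.18) and IDI1 (-0.17) were more negative and SC5D (0.17) more positive. A difference from the empty line was not called for ACAT2, HMGCS1, MVD, FDPS, TM7SF2, MSMO1, NSDHL, DHCR7, INSIG2 and STARD4. All of these genes fell in Tet-PTF1a. INSIG2 and STARD4 had log2 fold changes of -0.30 and -0.27 there, and -0.31 and -0.23 in the empty line without that library.

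The response of Tet-MIST1 differed from that of Tet-One in 2 genes, HMGCS1 (0.47, SE 0.0722, FDR 0.00232) and SC5D (0.48, SE 0.0659, FDR 0.000810), both more positive in Tet-MIST1. Of all 13879 genes tested 1.48% were more positive and 0.187% more negative. Both calls held in all 23 other fits. Without Tet-One Dox replicate 1 the count was 12, all more positive in Tet-MIST1, where 8.50% of all genes were more positive and 5.40% more negative. FDPS (0.57), INSIG2 (0.55), IDI1 (0.44), INSIG1 (0.43) and CYP51A1 (0.41) were then the largest beside SC5D (0.51) and HMGCS1 (0.47), and no fatty acid gene was called. With Tet-MIST1 Dox replicate 1 also left out, a choice made after seeing the data, the count was 10. The comparisons with Tet-One share its 8 libraries and are not independent of each other.

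Levels in the Control libraries differed between the lines. On a CPM scale over the genes in all 3 tables, every Tet-MIST1 Control library lay below every Tet-One Control library in 27 of the 33 genes and above in 4, against 33.8% and 41.5% of all genes above 1 CPM. The median ratio of the means, Tet-MIST1 over Tet-One, was 0.503 for the 33 genes and 1.03 over all genes. STARD4 had the lowest ratio, with 5.40 CPM in Tet-MIST1 and 37.7 CPM in Tet-One. FADS2 had 96.2 CPM in Tet-MIST1 and 508 CPM in Tet-One, FADS1 113 and 379 CPM, HMGCS1 31.5 and 106 CPM, and SREBF2 88.5 and 230.2 CPM. SREBF1 was among the exceptions, since its libraries overlapped between these lines (186 and 177 CPM).

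In Tet-PTF1a Control cells 14 of the 33 genes lay below and 14 above all Tet-One Control libraries, against 31.6% and 43.8% of all genes, with a median ratio of 1.07. ELOVL6 was higher in both other lines, at 9.78 CPM in Tet-MIST1, 6.60 CPM in Tet-PTF1a and 1.42 CPM in Tet-One. These levels come from 1 clone each, so a property of the clone and one of the plasmid cannot be told apart, and no test was made of them.

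Per kilobase of exon, the order of the Control levels in Tet-PTF1a was led by SCD, with 777 CPM per kb, followed by FADS2 (122) and FASN (121), which overlapped in their libraries, and FADS1 (105). DHCR7 (96.4), FDPS (96.1) and ACLY (93.7) came next and overlapped with their neighbours. HMGCS1 (25.4), ACACA (25.5) and PMVK (25.7) also overlapped. The lowest were ACSS2 (8.38) and INSIG2 (8.26), which overlapped, and ELOVL6 (1.97). SREBF2 (30.0) lay above SREBF1 (27.1) in Control, while after Dox SREBF1 was at 18.2 and SREBF2 at 30.5 CPM per kb.

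Further genes of cholesterol and fatty acid metabolism, not among the genes above, were read from 2 lists written from general knowledge. They are called cholesterol handling and fatty acid handling genes here. The lists include enzymes of synthesis, such as ELOVL2 and AGPAT2, so their counts do not describe genes outside synthesis alone. Of 34 cholesterol handling genes 29 were tested in Tet-PTF1a, where 5 rose and 11 fell, against 23.8% and 24.4% of all genes, with a median log2 fold change of -0.03. ABCA1, the transporter that exports cholesterol from cells, rose from 9.25 CPM ± 0.60 to 18.7 ± 0.55 (SD, n = 4, log2 fold change 1.01, FDR 1.39e-19). SCARB1, the receptor for high density lipoprotein, fell by 0.61 (FDR 4.92e-22), LIPA, the lysosomal acid lipase that frees cholesterol from its esters, fell by 0.45, and CYP27A1, a sterol hydroxylase, fell by 0.31.

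In Tet-MIST1 30 of the 34 were tested, and 5 rose and 3 fell, against 11.9% and 8.77% of all genes. ABCA1 fell there by 0.43 (FDR 0.0227) and SCARB1 rose by 0.35 (FDR 0.000648), each the opposite of Tet-PTF1a, and the difference between the lines was 1.46 for ABCA1 (FDR 2.08e-08) and -0.95 for SCARB1 (FDR 1.12e-10). ACAT1, the mitochondrial thiolase, rose by 0.47. CYP46A1, a brain sterol hydroxylase near the detection limit, is counted among the 5, at 0.197 CPM in Control and 0.597 CPM in Dox. It passed the filter of 0.5 CPM in at least 4 libraries only through its Dox libraries. The filter thus favored a rise, and the call of this gene is not read as a result. No gene of either list was called in Tet-One. ABCA1 had a log2 fold change of -0.36 in Tet-One, at 1.47 CPM in Control. Its difference between Tet-MIST1 and Tet-One was -0.07 (interaction FDR 0.982) and was not called. The differences for ACAT1 (FDR 0.385) and CYP46A1 (FDR 0.521) were not called either. SCARB1 (0.45, FDR 0.0344) was the only cholesterol handling gene called in that interaction.

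Of 52 fatty acid handling genes 46 were tested in Tet-PTF1a, where 7 rose and 26 fell, against 23.8% and 24.4% of all genes, with a median of -0.10. ELOVL2, an elongase of polyunsaturated fatty acids, fell by 0.78 (FDR 5.61e-24), beside the desaturases FADS1 and FADS2. MLXIPL, the carbohydrate-responsive factor ChREBP, fell by 0.71, at a low level of 3.04 to 1.80 CPM, and PPARG, the adipogenic nuclear receptor, fell by 0.52. AGPAT2, an acyltransferase of phosphatidic acid synthesis, rose by 0.88 (FDR 3.05e-23). In Tet-MIST1 45 were tested, of which 3 rose (FADS3 by 0.27, SCD5 by 0.22 and TECR by 0.15) and ELOVL2 alone fell, by 0.24, against 11.9% and 8.77% of all genes. No fatty acid handling gene was called in the interaction of Tet-MIST1 with Tet-One.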

How the data were processed

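RNA-seq of polyadenylated RNA was compared between Control and Dox libraries, 4 of each in 3 lines. The authors aligned paired reads to hg19 with TopHat, and the submitters' processing notes also name HTSeq, DESeq and edgeR, without versions. The deposited counts per gene of each line were used here as they stand. The strand setting and annotation of the counting are not given in the sources used here. Deposited exon lengths (another measure, in bases) gave levels per kb. The authors' 24 scaled CPM columns and their comparison columns (fold changes, p-values and FDR) were not used.

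Genes above 0.5 CPM in at least 4 libraries were tested in each line with edgeR 4.0.16 (R 4.3.3, limma 3.58.1; TMM scaling, robust quasi-likelihood test, prior count 2, Benjamini-Hochberg FDR under 0.05 over all genes tested). Responses were compared between lines by the interaction over 16 libraries. The SE is the absolute log2 fold change divided by the square root of F. Library totals (17210989 to 43018494 counts) set the precision of low genes. The scripts were tested on simulated data. DESeq2 1.42.0, an exact test, other scalings and filters, the replicate block and left-out libraries were tried as alternatives. Same-numbered Control and Dox libraries did not deviate together (r from -0.24 to 0.20), so the numbers do not pair them. The study describes the libraries as biological replicates, with no further source given, so the p-values measure the spread between these libraries. All 33 genes are named. Values by library are given for the SREBP regulators and for up to 6 called genes with the largest changes in each line, and for others where a statement needed them, chosen after seeing the data. From each handling list up to 4 called genes per line are named. The members and lists were chosen with earlier results of these data known. Genes not reported here include some of the pathway.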

Additional observations from a re-analysis of the deposited data

Results flagged for a closer look

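In each group of 4 libraries the highest or lowest value of a gene was set against the other 3 by Dixon's test. Of 198 groups (33 genes in 6 groups) 22 passed, where chance at 1 in 20 gives 9.9. Tet-One Dox replicate 1 held 9 of them. It was high for ACAT2 (259 CPM), PMVK (80.7 CPM), FDPS (377 CPM), FDFT1 (165 CPM), MSMO1 (101 CPM) and EBP (119 CPM) and low for ACACA (74.0 CPM), ACLY (208 CPM) and LPIN1 (39.8 CPM). In the same line Dox replicate 2 was low for SC5D (85.8 CPM) and high for SCAP (72.5 CPM), and Control replicate 2 was high for INSIG2 (27.4 CPM).

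In Tet-MIST1, Dox replicate 1 was high for PMVK (61.7 CPM) and Dox replicate 2 for SREBF1 (242 CPM). In Tet-PTF1a the low values were NSDHL in Control replicate 1 (63.1 CPM), FADS2 in Control replicate 2 (458 CPM), PMVK and ACACA in Control replicate 3 (31.6 and 285 CPM) and FADS1 in Dox replicate 2 (351 CPM). The high values of that line were LPIN1 in Control replicate 2 (81.5 CPM), STARD4 in Dox replicate 3 (55 CPM) and CYP51A1 in Dox replicate 4 (288 CPM).

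Differences in response between lines that passed the interaction test are repeated here on the log2 scale. Tet-MIST1 minus Tet-One gave 0.47 for HMGCS1 and 0.48 for SC5D. Tet-PTF1a minus Tet-One gave -0.37 for FDFT1, -0.26 for SQLE, -0.58 for SREBF1, -0.72 for FADS2 and -0.72 for LPIN1. Tet-PTF1a minus Tet-MIST1 gave, in the mevalonate part, -0.20 for ACAT2, -0.50 for HMGCS1, -0.34 for MVD, -0.60 for IDI1 and -0.65 for FDPS. In the later sterol steps it gave -0.52 for FDFT1, -0.27 for SQLE, -0.46 for LSS, -0.31 for CYP51A1, -0.35 for MSMO1, -0.64 for EBP and -0.32 for SC5D. Among the regulators it gave -0.58 for INSIG1, -0.53 for INSIG2, -0.75 for SREBF1 and -0.30 for STARD4. In the fatty acid branch it gave -0.39 for FASN, -0.56 for SCD, -0.99 for FADS2, -0.25 for ACSS2 and -0.83 for LPIN1.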

How the results depend on the processing

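No log2 fold change that was called changed its sign within a line under the alternatives. Values not called did, for 17 of the 33 genes in Tet-One (10 of them without Dox replicate 1, such as PMVK from 0.20 to -0.06, EBP from 0.16 to -0.10 and ACACA from -0.18 to 0.06), 11 in Tet-MIST1 and 1 in Tet-PTF1a. Without Tet-One Dox replicate 1 some differences between lines that had not been called changed sign too, as for ACAT2 (Tet-MIST1 minus Tet-One, from -0.07 to 0.12) and for EBP, which was then called (from 0.00 to 0.27). The 26 calls in Tet-PTF1a were 18 in a fit of all 24 libraries and 25 to 27 under the other alternatives, and 24 to 28 with a library left out. The 9 calls in Tet-MIST1 were 7 to 12 under the alternatives, 6 without Control replicate 1 and 14 without Dox replicate 2. The shares of all genes called in these Tet-MIST1 fits are not given. A minimum absolute log2 fold change of 1 left 0 calls in Tet-MIST1 and 0 in Tet-PTF1a, by its construction. Tet-One had 0 calls throughout. The 2 differences between Tet-MIST1 and Tet-One were 4 in the fit of all 24 libraries, 2 to 12 with a library left out (12 without Tet-One Dox replicate 1), and 10 without Dox replicate 1 of both lines. The 5 differences between Tet-PTF1a and Tet-One were 3 to 7 under the alternatives and 3 to 16 with a library left out, 16 being without Tet-One Dox replicate 1. The 21 between Tet-PTF1a and Tet-MIST1 were 18 to 24 throughout. With the replicate block the counts were 26 in Tet-PTF1a, 7 in Tet-MIST1 and 0 in Tet-One, and 3 for Tet-PTF1a against Tet-One. The numbers do not pair the libraries, and the cause of these shifts was not tested.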
